A study of Mus musculus with 2 samples.

Results

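Transcripts of 9 genes were followed in single cells of mouse liver: the metallothioneins Mt1 and Mt2, and Osgin1, Hmox1, Nqo1, Gclc, Gclm, Srxn1 and Txnrd1, which are linked to the oxidative stress response. They are 9 of the 55415 genes in the gene table and were matched by symbol. The set was chosen by the levels and library ratios that earlier results of these same 2 libraries had shown, so the differences between the libraries are given as a description and carry no test. Cells labelled as biliary epithelial cells, the cells that line the bile ducts, were taken from liver in 1 library of genotype Sox9cKO and 1 library of genotype Sox9con. Sox9 is a transcription factor of bile duct cells. The labels give neither the driver of the deletion, nor age, sex, or how the cells were isolated, and treatment is not named for either group. Fixed cells were barcoded by the split-pool method of the Parse Evercode kit, in which cells are tagged in several rounds of wells. Cells of the Sox9cKO library sat in 5 first-round wells and those of the Sox9con library in 4. The labels do not say whether the wells of a library are parts of 1 cell suspension, so the spread between wells is a spread within 1 library, which may be technical. With 1 library per group, the genotype cannot be told apart from any other difference between the libraries.

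Metallothioneins are small cysteine-rich proteins that bind zinc and copper, and their genes are switched on through the metal-sensing factor MTF1, which binds metal response elements. Glucocorticoids and oxidants raise them as well. The other genes are targets of NRF2 (Nfe2l2), a factor that KEAP1 holds back and sends to degradation until oxidants or electrophiles modify KEAP1. NRF2 then pairs with small MAF proteins at antioxidant response elements, where BACH1 acts as a repressor, above all at Hmox1. In bile duct cells, which meet bile acids and conjugated xenobiotics, these enzymes serve glutathione synthesis, peroxide repair and haem breakdown.

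The windows before the start sites of these genes are shown first, because the 2 regulatory elements described above can be read in them. RefSeq gave windows of 250 bases on GRCm38.p6 for 7 of the 9 genes, 9 windows in all, and Hmox1 and Gclc have no entry. The core of the metal response element was searched as TGCGCNC or TGCACNC and the core of the antioxidant response element as TGACNNNGC, both on either strand. Capitals mark the matches. The windows of Mt1 (chr8:94178839-94179088), Mt2 (chr8:94172368-94172617), Gclm (chr3:122245307-122245556) and one of the starts of Txnrd1 (chr10:82858956-82859205) are all on the plus strand.
Mt1: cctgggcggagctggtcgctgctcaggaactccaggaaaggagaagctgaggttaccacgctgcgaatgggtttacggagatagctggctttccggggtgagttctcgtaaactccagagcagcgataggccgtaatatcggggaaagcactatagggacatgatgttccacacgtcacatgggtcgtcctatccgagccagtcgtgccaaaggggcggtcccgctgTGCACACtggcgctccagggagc
Mt2: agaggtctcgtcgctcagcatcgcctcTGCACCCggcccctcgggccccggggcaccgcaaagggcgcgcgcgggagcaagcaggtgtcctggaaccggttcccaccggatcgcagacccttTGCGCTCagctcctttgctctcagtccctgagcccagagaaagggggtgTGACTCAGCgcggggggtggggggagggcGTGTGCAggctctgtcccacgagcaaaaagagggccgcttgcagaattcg
Gclm: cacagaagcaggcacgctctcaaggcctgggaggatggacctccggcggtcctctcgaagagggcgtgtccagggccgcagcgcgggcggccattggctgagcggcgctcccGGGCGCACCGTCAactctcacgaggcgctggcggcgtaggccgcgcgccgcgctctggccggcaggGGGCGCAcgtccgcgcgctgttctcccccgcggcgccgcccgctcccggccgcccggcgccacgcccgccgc
Txnrd1: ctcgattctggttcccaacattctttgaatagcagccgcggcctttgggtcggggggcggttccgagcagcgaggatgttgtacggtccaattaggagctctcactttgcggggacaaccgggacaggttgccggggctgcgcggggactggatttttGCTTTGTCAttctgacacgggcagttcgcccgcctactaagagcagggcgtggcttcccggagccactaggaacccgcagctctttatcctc

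The Mt1 window held 1 match to the metal response core, 17 to 23 bases before the RefSeq start, and the neighbouring Mt2 window held 3 such matches and 1 match to the antioxidant response core. The Gclm window held 2 metal response matches and 1 antioxidant response match, and 1 of the metal response matches overlaps it. The Txnrd1 window had 1 antioxidant response match, Srxn1 had 1 metal response match, and the windows of Osgin1 and Nqo1 and the other 2 of Txnrd1 held neither core as searched. Close forms were not searched, such as tgagtcagc in the Srxn1 window and the same letters on the other strand (gctgactca) in the Osgin1 window. A window without a match may thus still hold an element. Of 32851 RefSeq windows, 21.4% held at least 1 metal response core, 1.26% at least 3, and 10.2% the antioxidant response core. A match is a description of the letters and not of binding. Each window stops at its RefSeq start, which was not checked against the start used in these cells. Elements outside the window are not counted, so the matches do not give the number of elements of a gene.

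The Sox9cKO library held 2740 cells and 14856321 UMIs (unique molecular identifiers, which count transcripts), and the Sox9con library 3622 cells and 12811243 UMIs. After filters, 2610 and 3373 cells were taken as biliary, with medians of 5126 and 3226 UMIs per cell, and 85 and 121 cells as endothelial-like, with medians of 2399 and 2318. No cell barcode was shared between the libraries. Of 14 biliary markers, 13 reached 50 CPM (a gene's UMIs scaled to the total UMIs of the class, the unit of all levels here) in each biliary cluster, although none of them was among the 10 leading genes of any, and all 14 endothelial markers did so in the endothelial-like cluster. Summed biliary markers in the endothelial-like cells were at 14.7% and 14.6% of their biliary level, while summed endothelial markers in the biliary cells were at 0.264% and 0.342% of their endothelial-like level. Sox9 itself was at 122 CPM in biliary cells of the Sox9cKO library and 145 CPM in those of the Sox9con library, a log2 ratio of -0.26 (-0.35 to -0.16). It was lower in 10 of the 20 pairs of wells, and 1 control-labelled well set its direction. Well D9 had 220 CPM of Sox9, against 92.6, 74.2 and 153 CPM in D10, D11 and D12 and 102 to 145 CPM in the Sox9cKO wells. Without D9, an alternative chosen after seeing the data, the ratio was 0.15, and at an equal mix of the biliary clusters described below it was 0.00. The counts do not show whether a deleted exon lies outside the sequenced part, so this level does not check the label, and the libraries are called cKO-labelled and control-labelled from here on.

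Both metallothioneins were lower in biliary cells of the cKO-labelled library, and the size of the gap depended on 1 control-labelled well. Mt1 was at 113, 68.1, 97.9, 90.2 and 88.9 CPM in the wells A11, A12, B1, B2 and B3 of the cKO-labelled library. In the control-labelled wells D9, D10, D11 and D12 it was at 95.5, 223, 272 and 221 CPM. The cKO-labelled wells thus lay close together, 3 control-labelled wells lay above them all, and D9 lay inside their range. Summed per library, Mt1 gave 88.9 against 190 CPM from 1281 and 2315 UMIs, a level 2.14-fold higher in the control-labelled library (log2 ratio -1.10, 95% counting interval -1.20 to -0.998). It was lower in 18 of 20 pairs of wells, and in 8 of the 8 sublibraries, the portions into which the pooled cells were split last.

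Mt2 followed Mt1 over the wells with a smaller gap. It was at 166, 77.7, 133, 101 and 112 CPM in the cKO-labelled wells and at 90.9, 185, 228 and 178 CPM in D9, D10, D11 and D12. Again D9 lay among the cKO-labelled wells and the other 3 control-labelled wells above them. The sums were 113 and 160 CPM, a log2 ratio of -0.51 (-0.61 to -0.41), lower in 16 of 20 pairs.

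For Mt1 and Mt2, well D9 therefore differed from the other wells of its own library by more than the 2 libraries did with D9 included. Its Mt1 level was 95.5 CPM against 235 CPM over the other control-labelled wells (log2 ratio -1.30), and -1.25 at an equal mix of biliary clusters. For Mt2 these values were -1.09 and -1.07. Of the 9336 genes with at least 200 UMIs in biliary cells, 5.47% were at least 2-fold lower in D9 than in the other control-labelled wells and 0.675% at least 2-fold higher, and of the 8 described genes among them Mt1 and Mt2 were the 2 that were lower by that much. Set against D9 alone, the cKO-labelled library had a log2 ratio of -0.10 for Mt1 and 0.31 for Mt2. Without D9 the ratios of the libraries were -1.40 and -0.78, the first larger in size than the gap of D9 itself. Osgin1 and Gclc differed less in D9 than between the libraries, at -0.14 and 0.07 against the other control-labelled wells. D9 also had the highest Sox9 level of all wells, 220 CPM against 110.0 CPM over the other control-labelled wells. Cells of D9 had a median of 4346 UMIs, against 2391 to 3334 in the other control-labelled wells and 3537 to 6479 in the cKO-labelled wells.

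Mt1 was lower in deeper cells in both libraries. Control-labelled biliary cells with 1000 to 2000 UMIs had 261 CPM of Mt1, those with 2000 to 3000 had 233, those with 3000 to 5000 had 190 and deeper cells 151. In the cKO-labelled library the same classes had 126, 106, 95.5 and 84.6 CPM. At each depth the cKO-labelled cells had less Mt1, with a log2 ratio of -0.99 among cells of 3000 to 5000 UMIs. Mt2 went from 242 through 196 and 161 to 123 CPM over these depths in the control-labelled cells. In the cKO-labelled cells it was at 171, 104, 114 and 111 CPM, with no further fall above 2000 UMIs. The part of depth or of the well in the difference was not tested further.

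**Figure D1:**
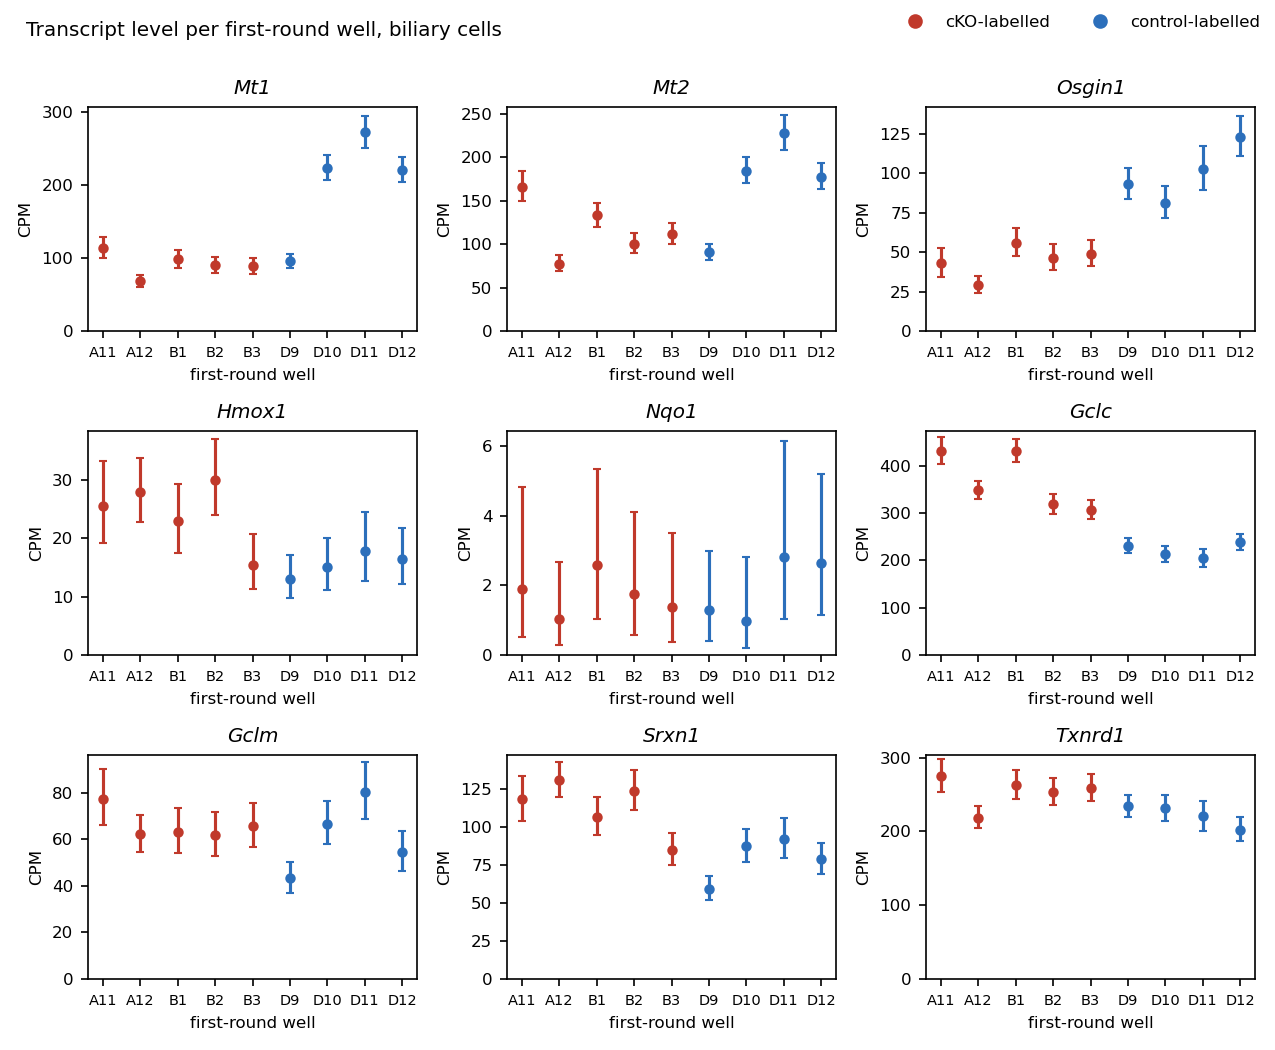
CPM (vertical axis, from 0) of each gene in biliary cells of each first-round well (horizontal axis), cKO-labelled in red and control-labelled in blue, with 95% Poisson bars that cover counting error only. Mt1 and Mt2 in D9 (95.5 and 90.9 CPM) sit with the red wells, while Osgin1 and Gclc separate all red wells from all blue ones.

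Osgin1, an oxidative stress induced growth inhibitor, was lower in the cKO-labelled library in every pair of wells. It was at 42.9, 29.0, 55.8, 46.5 and 48.7 CPM in A11, A12, B1, B2 and B3, and at 92.9, 81.3, 102 and 123 CPM in D9, D10, D11 and D12. The highest cKO-labelled well stayed under the lowest control-labelled well, and D9 stood with its own library. The sums were 43.5 and 99.1 CPM, 2.28-fold higher in the control-labelled library (log2 ratio -1.19, -1.33 to -1.05).

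Gclc, the catalytic subunit of glutamate-cysteine ligase and the rate-limiting step of glutathione synthesis, moved the opposite way. Its levels were 430 (A11), 347 (A12), 431 (B1), 318 (B2) and 307 (B3) CPM against 231 (D9), 213 (D10), 204 (D11) and 238 (D12) CPM. No well of one library reached the range of the other. From 5211 and 2721 UMIs, Gclc was at 361 and 223 CPM, 1.62-fold higher in the cKO-labelled library (log2 ratio 0.69, 0.63 to 0.76).

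Gclm, the modifier subunit of the same ligase, did not follow Gclc. It was at 61.6 to 77.3 CPM in the cKO-labelled wells and at 43.3 (D9), 66.5 (D10), 80.3 (D11) and 54.4 (D12) CPM in the others, so the control-labelled wells spanned the whole cKO-labelled range. The log2 ratio was 0.16 (0.01 to 0.30), higher in 11 of 20 pairs, and it fell to -0.01 without D9.

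Srxn1, sulfiredoxin, which repairs overoxidised peroxiredoxins, was at 118, 131, 107, 124 and 85.1 CPM in A11, A12, B1, B2 and B3. The control-labelled wells had 59.4 (D9), 87.4 (D10), 92.1 (D11) and 78.8 (D12) CPM. Only B3 fell within the control-labelled range, and the log2 ratio was 0.56 (0.45 to 0.68), higher in 18 of 20 pairs. Txnrd1, cytosolic thioredoxin reductase, had 219 to 275 CPM in the cKO-labelled wells and 203 to 234 CPM in the control-labelled ones. These ranges overlapped, with a log2 ratio of 0.17 (0.09 to 0.24) and 17 of 20 pairs higher.

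Hmox1, haem oxygenase, which breaks down haem to biliverdin, iron and carbon monoxide, was at 25.5, 27.9, 22.9, 29.9 and 15.4 CPM in A11, A12, B1, B2 and B3 and at 13.1 to 17.9 CPM in the control-labelled wells. All cKO-labelled wells except B3 were above the control-labelled ones, and the log2 ratio was 0.68 (0.42 to 0.94). Nqo1, a quinone reductase, gave 24 and 22 UMIs in all biliary cells, or 1.66 and 1.81 CPM. Its log2 ratio of -0.12 had a counting interval of -1.01 to 0.79, so a difference was not detectable at this depth.

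Of the 9 genes, 5 were higher and 4 lower in the cKO-labelled library, with a median log2 ratio of 0.16, beside a median of -0.07 over the 9336 genes with at least 200 UMIs, of which 41.5% were higher. At least 2-fold lower were 2 (Mt1 and Osgin1), against 1.75% of all genes counted, and at least 2-fold higher were 0, against 2.2%. Gclc was higher and Osgin1 lower in all pairs of wells, as were 7.57% and 8.35% of all genes counted. Of the 9 genes, 8 reached 200 UMIs and Nqo1 did not. With the size factors of DESeq2, which shift the median of all genes by 0.146, the 205 genes at least 2-fold higher and 163 lower became 270 and 92, and 6 of the 9 described genes were higher. Because the set was chosen with these ratios known, nothing is read from the counts.

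In endothelial-like cells the metallothioneins were again lower in the cKO-labelled library, from few molecules. Mt1 had 51 and 166 UMIs, and it was at 386, 96.9, 253, 150 and 190 CPM in A11, A12, B1, B2 and B3 against 528, 365, 404 and 410 CPM in D9, D10, D11 and D12. A11 alone entered the control-labelled range, and D9 was the highest well here, which rests on 1 cell with 47 of its 74 Mt1 UMIs. Without that cell D9 was at 282 CPM, the lowest control-labelled well, as in biliary cells. The log2 ratio was -1.19 (-1.67 to -0.73), lower in 19 of 20 pairs. Mt2 had 27 and 97 UMIs, with 27.7 to 171 CPM in the cKO-labelled wells and 195 to 343 CPM in the control-labelled ones. These ranges did not overlap, as for 1.81% of the 2650 genes with at least 50 UMIs in this class that were lower in all pairs, and the log2 ratio was -1.32 (-2.01 to -0.71). Without the same cell D9 fell to 115 CPM of Mt2, inside the cKO-labelled range, and Mt2 was lower in 17 of 20 pairs.

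This control-labelled cell had 44473 UMIs, which is 11.9% of all UMIs of the control-labelled endothelial-like cells, and held 47 UMIs of Mt1 and 37 of Mt2. Without it the log2 ratios were -0.89 (-1.40 to -0.41) for Mt1 and -0.81 (-1.54 to -0.15) for Mt2. In cells of 1500 to 4000 UMIs alone the ratios were -0.59 and -0.54.

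Osgin1 had 8 and 35 UMIs in endothelial-like cells, or 30.5 and 93.7 CPM. The log2 ratio was -1.57 (-2.94 to -0.48), lower in 17 of 20 pairs, so its direction was the same in both cell classes. Gclc had 49 and 47 UMIs, with a log2 ratio of 0.57 (-0.04 to 1.18) and 15 of 20 pairs higher. This direction was that of the biliary cells too, though the wells overlapped, from 99.8 to 303 CPM against 89.8 to 205 CPM. For Hmox1 (16 and 20 UMIs), Gclm (9 and 11), Srxn1 (8 and 11) and Txnrd1 (52 and 81) the intervals spanned 0, with log2 ratios of 0.18, 0.21, 0.05 and -0.13. Nqo1 gave 0 and 1 UMI, both under the 3 UMIs that a count of 0 allows, and no ratio is given.

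Of the 8 genes above 3 UMIs in endothelial-like cells, 4 were higher and 4 lower in the cKO-labelled library, beside 46.5% of genes higher in this class. At least 2-fold lower were 3 (Mt1, Mt2 and Osgin1), against 4.19% of the genes counted there. The genes counted have at least 50 UMIs in this class, which Osgin1, Hmox1, Gclm and Srxn1 did not reach. Genes with few UMIs can pass 2-fold by counting error more easily, so these shares are no measure for those 4 genes. Without the cell of 44473 UMIs, Osgin1 alone (-1.75), which is not among the genes counted, was lower by that much. Mt2 was lower in all pairs of wells (1.81% of genes), a call that also ended without that cell, and 0 were higher in all pairs (1.47%). Of the 4 genes with enough UMIs in both classes, Mt1 and Mt2 were lower in both, as were 34.6% of the 2437 genes so counted, Gclc was higher in both, as were 28.8%, and Txnrd1 changed sign. The direction was the same in both classes for 63.4% of those genes. The classes came from the same libraries and wells and share their free RNA, whose part in the like directions was not tested.

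**Figure D2:**
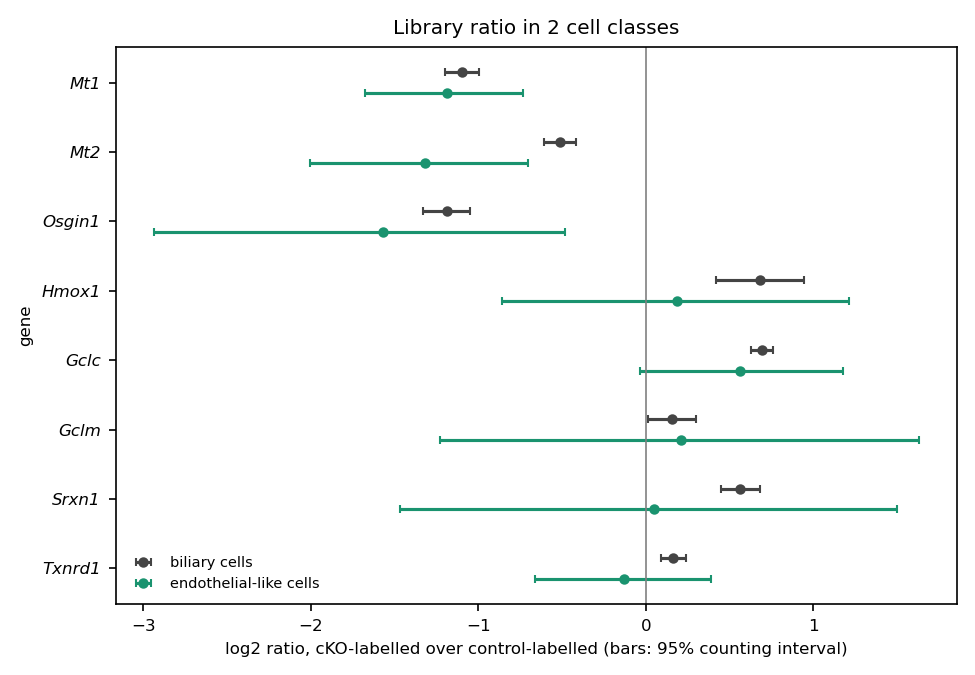
Log2 ratio of CPM, cKO-labelled over control-labelled (horizontal axis), for 8 genes (vertical axis) in biliary cells (grey) and endothelial-like cells (green), with 95% counting intervals. Mt1, Mt2 and Osgin1 lie left of 0 in both classes, and the endothelial-like intervals of Hmox1, Gclc, Gclm, Srxn1 and Txnrd1 cross 0.

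Some of the genes also differed in level between the classes within a library. Mt1 was higher in endothelial-like than in biliary cells, 195 against 88.9 CPM in the cKO-labelled library (log2 ratio 1.13, 0.70 to 1.53) and 444 against 190 CPM in the control-labelled one (1.22, 0.99 to 1.45). Hmox1 was higher there too, with log2 ratios of 1.31 (0.49 to 2.04) and 1.80 (1.07 to 2.48). Such a gap of at least 2-fold was seen in 32.8% and 33.1% of the 2650 genes, among which Hmox1 had too few UMIs to be counted.

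Gclc and Srxn1 were lower in endothelial-like cells of both libraries, and Gclm beyond counting error in the control-labelled one. Gclc had log2 ratios of -0.95 and -0.83, Gclm -0.92 and -0.99, and Srxn1 -1.90 and -1.39, in the cKO-labelled and the control-labelled library. The Gclm interval in the cKO-labelled library, from 9 UMIs, was -2.06 to 0.0067. Gaps of at least 2-fold in this direction were found in 11.2% and 9.85% of the genes counted, among which Gclm and Srxn1 had too few UMIs to be. Srxn1 was at 0.268 and 0.382 times its biliary level, where the summed biliary markers were at 14.7% and 14.6% of theirs. Osgin1 (-0.51 and -0.08) and Txnrd1 (-0.34 and -0.04) had intervals that spanned 0. Mt2 was near its biliary level in the cKO-labelled library (-0.13, -0.74 to 0.42) and above it in the control-labelled one (0.69, 0.38 to 0.99), or at 0.18 there without the deepest cell.

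Biliary cells were split into 8 clusters without using the described genes, the gene lists below or Sox9. Cluster 0 (led by Ptgs2 and Ces1c, 799 and 26 cells) and cluster 1 (Hp and Gc, 470 and 0 cells) came nearly all from the cKO-labelled library, so they may be that library and not a kind of cell. Clusters 2 to 7 held at least 50 cells of each library. Among the control-labelled cells Mt1 was highest in cluster 5 (led by Muc4 and Ltf), at 428 CPM, and lowest in cluster 6 (Dnah12 and Slpi), at 98.8 CPM. In the cKO-labelled cells cluster 5 was the highest as well, at 224 CPM, and cluster 0 the lowest, at 54.4 CPM.

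The library difference of Mt1 was not alike in these clusters. The log2 ratio was -1.57, -1.30, -1.16 and -0.93 in clusters 2, 3, 4 and 5, each interval below 0. In clusters 6 and 7 it was 0.17 (-0.51 to 0.82) and 0.05 (-0.39 to 0.46). Mt2 had ratios of -1.33, -1.30, -1.02, -0.53, 0.40 and -0.56 in clusters 2 to 7, and at an equal mix of clusters its ratio was -0.95.

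Osgin1 was highest in the control-labelled cells of clusters 6 and 7 (led by Rhoj and Adgrv1), at 196 and 166 CPM, where the cKO-labelled cells had 59.0 and 86.4 CPM. It was lower in 5 of 6 clusters and beyond counting error in 4, the exception being cluster 4 at 0.04 (-0.76 to 0.76). Gclc was higher in 5 of 6 clusters, by 0.58 to 0.84 on the log2 scale, and lower in cluster 5 at -0.42 (-0.72 to -0.14). Its top level, 575 CPM, was in cluster 1.

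Hmox1 peaked in that same cluster, at 59.0 CPM, against 4.36 to 33.9 CPM in the other cKO-labelled clusters. Of the 5 clusters with enough UMIs for a ratio, Hmox1 was lower in 3 and higher in 2. It passed counting error in cluster 5 alone (-2.49, -5.01 to -0.94). At an equal mix of clusters 0 and 2 to 7, its library ratio was -0.07 in place of 0.68. Cluster 1, which has no control-labelled cells, does not enter that value, and the cause of the change was not tested. Srxn1 was low in clusters 6 and 7, at 38.1 and 21.6 CPM in the cKO-labelled and 24.7 and 45.7 CPM in the control-labelled cells, against 72.2 to 141 CPM in the rest. Its ratio at an equal mix of clusters was 0.26. By cluster Srxn1 was higher in 5 of 6, beyond counting error in cluster 2 (0.30, 0.06 to 0.55), and lower in cluster 7 (-1.07, -2.42 to -0.0048). Gclm was higher in 4 and lower in 2 of 6 clusters, beyond counting error in cluster 5 alone (0.88, 0.39 to 1.39). Txnrd1 was split 3 and 3, with 2 clusters higher and 0 lower beyond counting error.

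**Figure D3:**
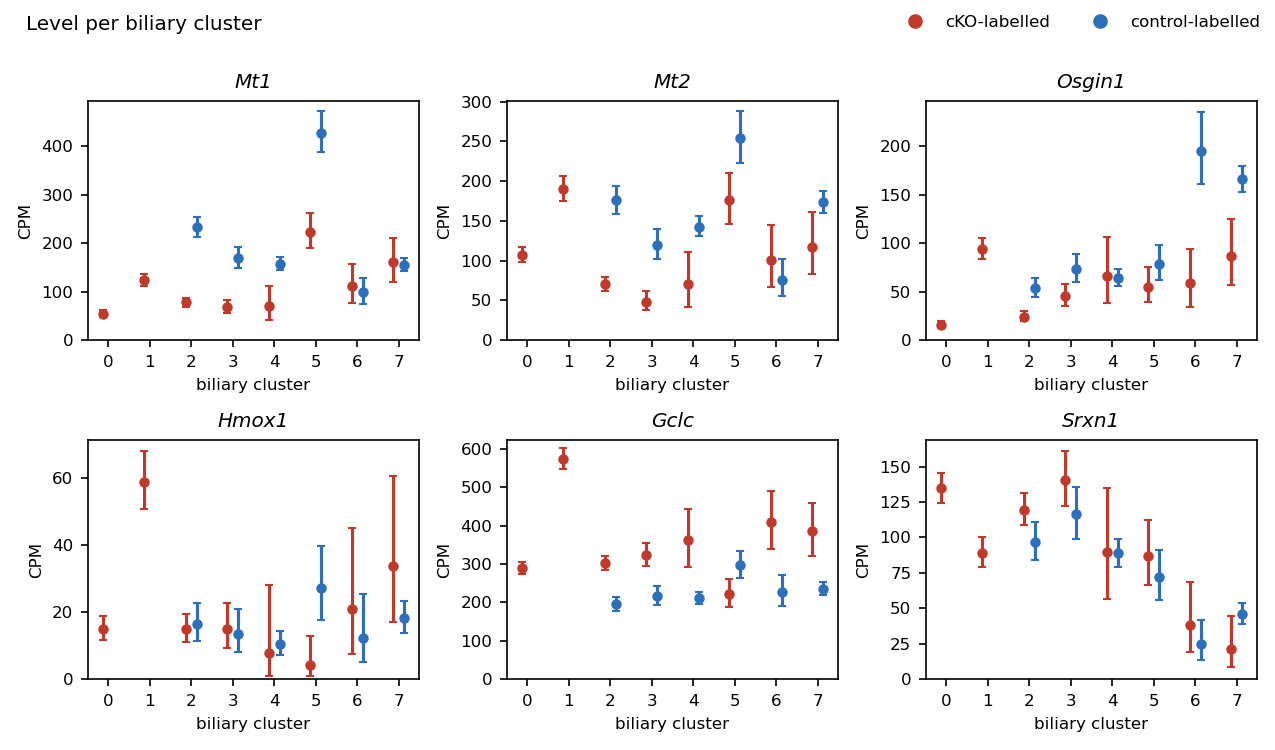
CPM (vertical axis, from 0) of 6 genes in each biliary cluster (horizontal axis) with at least 50 cells of that library, cKO-labelled in red and control-labelled in blue, with 95% Poisson bars. Mt1 peaks in cluster 5 in both libraries (224 and 428 CPM), and Gclc and Hmox1 peak in the cKO-labelled cluster 1 (575 and 59.0 CPM).

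Co-detection was counted in cells thinned to 2000 UMIs, which left 2470 and 2807 biliary cells. Mt1 was found in 14.3% and 25.8% of them and Mt2 in 15.8% and 20.9%. Before thinning the shares were 27.1% and 34.6% for Mt1 and 27.9% and 29.3% for Mt2. The 2 metallothioneins were found in the same cells more often than independent detection gives: 132 cells against 55.7 in the cKO-labelled library (ratio 2.37) and 301 against 151 in the control-labelled one (1.99). With expected numbers taken within clusters the ratios were 2.24 and 1.91. Expected numbers were not taken within wells, although D9 had less of both genes than the other control-labelled wells. The annotated transcripts of the 2 genes share 0 stretches of 31 bases.

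After thinning, metallothionein molecules were detected in a minority of biliary cells. The 10% of biliary cells with the most held 64.2% and 55.0% of the summed Mt1 and Mt2 UMIs. Neither gene was detected in 75.3% and 64.1% of cells. Thinned cells give few UMIs of these genes, so an equal level in all cells would also leave many cells without any. The shares expected from such sampling were not computed, so whether few cells hold most of the molecules was not tested. In endothelial-like cells 4 cells had both against 1.61 expected (of 56), and 10 against 5.97 (of 74), where the counting intervals include the expected numbers.

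At 2000 UMIs, the co-detections beyond counting error were pairs with a metallothionein. Among the 28 pairs of described genes with at least 5 cells expected, the median ratio of observed to expected was 1.07 and 1.05. The interval of the observed count lay above the expected number for 3 pairs in the cKO-labelled library (Mt1 with Mt2, Mt1 with Txnrd1 and Mt2 with Gclc) and for 4 in the control-labelled one (Mt1 with Mt2, Mt1 with Hmox1, Mt2 with Osgin1 and Mt2 with Gclm). Mt1 with Mt2 was the one pair found in both libraries. Some calls were narrow, as for Mt2 with Osgin1, whose interval began at 85.9 cells against 85.4 expected. The share of other gene pairs that pass this rule is not given, so the counts of pairs are descriptions. With expected numbers taken within clusters, Mt2 with Gclc was no longer beyond counting error. At other depths pairs of NRF2-linked genes were also beyond it. Osgin1 with Hmox1 was found in 25 cKO-labelled cells thinned to 4000 UMIs (16.2 to 36.9) against 15.5 expected, though 19.8 were expected within clusters. In unthinned cKO-labelled cells, whose depths differ, this pair was in 64 cells against 32.8 and Hmox1 with Gclm in 91 against 54.9. The 2 subunits of glutamate-cysteine ligase, Gclc and Gclm, had a ratio of 1.06 in both libraries. None of the 7 NRF2-linked genes was detected in 26.2% and 30.6% of thinned biliary cells.

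**Figure D4:**
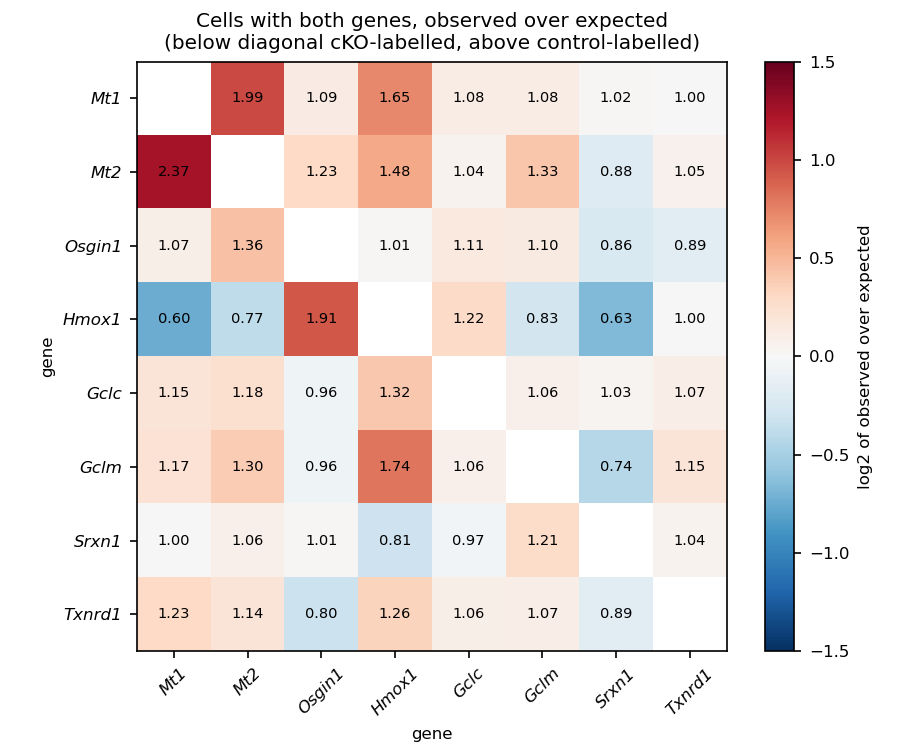
Cells with both genes of a pair over the number expected from independent detection (numbers in the cells, colour on a log2 scale), in biliary cells thinned to 2000 UMIs, with the cKO-labelled library below and the control-labelled library above the diagonal. Mt1 with Mt2 stands out at 2.37 and 1.99.

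Most genes of the lists of other NRF2 targets, haem and iron, and other antioxidant enzymes were lower, where 41.5% of all genes counted were higher, but with the DESeq2 factors most haem and iron genes, 7 of 12, were higher. Of 10 regulators of NRF2, 4 were higher and 6 lower in biliary cells of the cKO-labelled library, with a median log2 ratio of -0.07. Nfe2l2 was at 115 and 110 CPM (0.06, -0.04 to 0.17) and Keap1 at 26.6 and 27.7 CPM (-0.06, -0.27 to 0.16), so neither differed beyond counting error. Bach1, the repressor, was the highest of the list at 129 against 95.8 CPM (0.43, 0.32 to 0.54, higher in 20 of 20 pairs), and Maff, a small MAF partner, the lowest at 106 against 166 CPM (-0.65, lower in 20 of 20 pairs).

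Of 23 other NRF2 target enzymes, 7 were higher and 16 lower, with a median of -0.15. Abcc4, an efflux pump for conjugates and bile acids, was the highest at 318 against 118 CPM (1.43, 1.34 to 1.51), and Cbr3, a carbonyl reductase, the lowest at 5.55 against 10.3 CPM (-0.89). Slc7a11, the cystine importer that feeds glutathione synthesis, was the other gene at least 2-fold higher, at 10.4 against 4.27 CPM (1.28, 0.82 to 1.77). It is named after its value was seen.

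Of 21 other antioxidant enzymes 2 were higher and 19 lower, with a median of -0.55. The lowest was Gpx1, a glutathione peroxidase, at 93.6 against 225 CPM (-1.27), lower in 18 of 20 pairs, and the highest named gene was Sesn3, a sestrin, at 0.02. The median over pairs of wells ran from -0.91 to 0.11. Haem and iron genes were split 4 to 8 (median -0.10), from Alas1, which starts haem synthesis, at 0.13 to Blvrb, a biliverdin reductase, at -1.17.

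Of 14 metal-handling genes other than Mt1 and Mt2, 6 were higher and 8 lower, with a median of -0.02. Mtf1, the factor of the metal response element, was at 51.1 against 63.2 CPM (-0.31, -0.46 to -0.16, lower in 18 of 20 pairs). Slc30a1, a zinc exporter that is also an MTF1 target, was at 37.7 CPM in both (-0.00, -0.18 to 0.18), while the copper pump Atp7b was at 15.3 against 9.28 CPM (0.72). The glucocorticoid list had 6 higher and 4 lower (median 0.14, from Zbtb16 at 0.84 to Tsc22d3 at -0.43). The list of genes that respond to tissue dissociation had 2 higher and 14 lower (median -0.30, from Dusp1 at 0.35 to Zfp36 at -0.86). Summed, the dissociation list was at 3722 to 5050 CPM in the cKO-labelled wells and at 4494 to 5518 CPM in the control-labelled ones, the highest being D9, and its part in the metallothionein difference was not tested. With the DESeq2 factors the splits of higher and lower became 10 and 4 for metal handling (median 0.12), 6 and 4 for the NRF2 regulators (0.07), 11 and 12 for the NRF2 targets (-0.00), 7 and 5 for haem and iron (0.05), 4 and 17 for the other antioxidant enzymes (-0.41), 7 and 3 for the glucocorticoid list (0.29) and 5 and 11 for the dissociation list (-0.16).

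**Figure D5:**
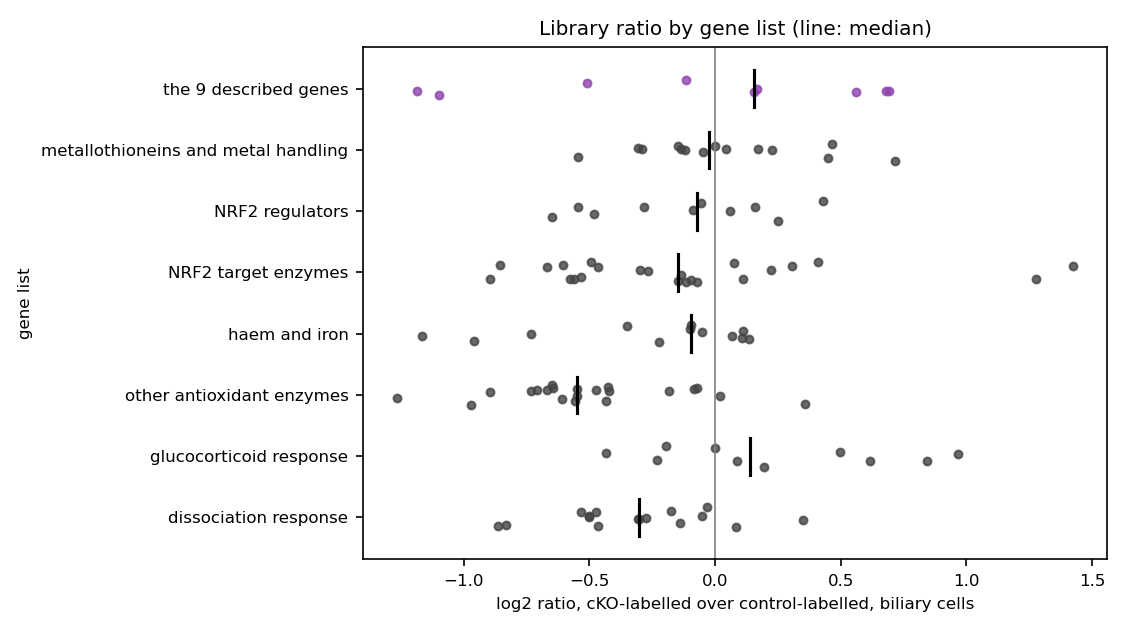
Log2 ratio, cKO-labelled over control-labelled, in biliary cells (horizontal axis) for the 9 described genes and for each gene of 7 lists (rows), with a line at each median. The described genes spread from -1.19 to 0.69, and the other antioxidant enzymes have the lowest median at -0.55.

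Over the 14 units made of a biliary cluster and a library with at least 50 cells, Mt1 and Mt2 varied together (Pearson r 0.83). The other 7 genes summed, a sum in which Gclc and Txnrd1 weigh most, had r values of -0.09 with Mt1 and 0.15 with Mt2. Taken singly, these genes ran from -0.31 (Gclc) to 0.36 (Osgin1) with Mt1. With Mt2 they ran from -0.12 (Gclc) to 0.46 (Txnrd1). Gclm varied with Txnrd1 (0.77) and Gclc with Hmox1 (0.69), while Osgin1 and Srxn1 ran opposite (-0.69). Among 6694 genes those most like Mt1 plus Mt2 included Ftl1 (0.83), Crim1 (0.81), Pex19 (0.79) and Tmem59 (0.79). The 5 most like the other 7 genes summed were Sptbn1 (0.90), Abcc2 (0.84), Hspd1 (0.83), Serinc5 (0.83) and Ly75 (0.81). The units share library and depth, and these values are descriptions.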

How the data were processed

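For each library the authors deposited a matrix of UMI counts, not normalized, and per the file headers these are whole numbers by cell and gene. The build is GRCm39, per the submitters' processing notes. The aligner, the annotation release and how barcodes were taken as cells are not given in the sources used here. The 9 genes, the gene lists and the comparisons were chosen with earlier results of these data known.

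Everything else was computed from those deposited counts. The filter kept cells from 500 genes and 1000 UMIs upwards whose mitochondrial share was 15% or less (2712 and 3505). Scrublet marked 1 and 2 doublets, too few to have worked, and an alternative removed the top 5% of scores. Clustering used scanpy 1.11.5 (2000 variable genes, 30 components, 15 neighbours, Leiden resolution 0.5) without the described genes, the lists and Sox9. Clusters were named from marker lists at 50 CPM. One cluster led by Fyb, Mctp1 and Dgki (17 and 11 cells) was left unnamed. UMIs were summed per library and class, and log2 ratios of CPM had 0.5 counts added. Intervals are exact 95% Poisson, Clopper-Pearson or conditional binomial ones, but those of differences between the cell classes are 95% normal intervals of the log counts. All cover counting error only, since no test of the groups is possible with 1 library each. The floor for a count of 0 is 3 UMIs. Ratios were checked on simulated counts. Scalings by edgeR 4.0.16 (TMM) and DESeq2 1.42.0 size factors were alternatives only. Genes were named by rule: the 9 genes, Sox9, the highest and lowest gene of each list with at least 100 UMIs, Nfe2l2, Keap1, Bach1, Mtf1, Slc30a1, and the 5 most like genes, of which 1 is not reported here. List genes needed 20 UMIs. Motifs and overlaps used GRCm38 sequences and GENCODE M21. There, Txnrd1 overlaps Eid3 and Gclm overlaps Gm6061 on the same strand, so their counts may be shared, while Mt2, Gclm and Txnrd1 overlap genes on the other strand. Strand use in the counting is not given in the sources used here.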

Additional observations from a re-analysis of the deposited data

Results flagged for a closer look

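The library ratio of Mt2 differed between the cell classes by -0.81 on the log2 scale (endothelial-like -1.32 minus biliary -0.51, 95% counting interval -1.43 to -0.19), the one gene of the 9 whose interval excluded 0. Without the control-labelled D9 cell of 44473 UMIs the difference was -0.30 (-0.96 to 0.35).

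Txnrd1 had ratios of opposite sign in the classes, 0.17 in biliary and -0.13 in endothelial-like cells, a difference of -0.29 with a counting interval of -0.80 to 0.21. With 1 library per group this difference was not tested.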

How the results depend on the processing

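Over the 21 alternatives run for biliary cells, Mt1 (-1.40 to -0.95), Mt2 (-0.95 to -0.36) and Osgin1 (-1.36 to -0.93) stayed lower and Gclc (0.53 to 0.84), Srxn1 (0.26 to 0.71) and Txnrd1 (0.12 to 0.31) stayed higher in the cKO-labelled library. Over the 20 for endothelial-like cells, Mt1 (-1.79 to -0.59), Mt2 (-1.58 to -0.54), Osgin1 (-2.28 to -1.12) and Gclc (0.32 to 1.06) kept their direction. The alternatives on cells of 3000 to 5000 or 1500 to 4000 UMIs, on the deepest endothelial-like cell, on the lists and gene counts without D9, and all on Sox9 were chosen after seeing the data. The causes of the changes below were not tested. No paired analysis was possible because each group is 1 library.

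In biliary cells, Sox9 (-0.26) turned to 0.15 without D9 and 0.0024 at an equal mix of clusters. Hmox1 (-0.071) and the median of the 9 genes (-0.057) turned negative at an equal mix of clusters. Without D9 the median and Gclm, which is the middle gene, were both -0.011, and Gclm was -0.083 in cells of 3000 to 5000 UMIs. Nqo1 turned positive with the strict cell filter (0.026), with DESeq2 factors (0.030), without A12 (0.064), D11 (0.063) or D12 (0.12), and in cells of 3000 to 5000 UMIs (0.092).

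In endothelial-like cells, removing the top 5% of doublet scores left 2 genes higher, with a median of -0.50, Hmox1 at -0.27 and Srxn1 at -1.91. Averaging over cells also left 2 higher, with Hmox1 at -0.086 and Srxn1 at -0.083. Thinning to 2000 UMIs gave a median of -0.70 and Gclm at -1.24. Srxn1 was -0.018 at resolution 1.0, -0.49 averaged over wells, -1.35 without B1, -0.16 without D9 and -0.21 without D12. Hmox1 was -0.17 without A12 and -0.13 without D10, and Txnrd1 was 0.061 without A12 and 0.098 without D12. The median was 0.024 without A11, -0.67 without B1, 0.047 without B3 and 0.0024 without D11. After thinning, the endothelial-like over biliary ratio was 0.23 for Mt2 in the cKO-labelled and 0.50 for Txnrd1 in the control-labelled library.

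Genes at least 2-fold lower numbered 163, and 261 with a minimum of 100 UMIs, 92 with 500 UMIs, 4204 with 1 UMI, 92 with DESeq2 factors and 419 without D9. Those at least 2-fold higher numbered 205, and 117 with 500 UMIs and 3877 with 1 UMI. The list medians turned positive for metal handling (0.072 with TMM, 0.12 with DESeq2 factors), NRF2 regulators (0.024 and 0.074) and haem and iron (0.049 with DESeq2 factors). Observed over expected cells with Mt1 and Mt2 were 1.90 and 1.76 in unthinned cells, and 1.74 in control-labelled cells thinned to 4000 UMIs. Depth limits Nqo1 in both classes and all genes but Mt1, Mt2, Gclc and Txnrd1 in endothelial-like cells.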
